A study of Mus musculus with 8 samples.

Results

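The genes described here are the interferon receptors and JAK kinases with the ligand interferon beta: Ifnb1, Ifnar1, Ifnar2, Ifngr1, Ifngr2, Jak1, Jak2 and Tyk2. They were chosen by name as the parts of the cell that make and receive the interferon signal, and all 8 were found among the 46078 genes of the count table, of which 45229 carry a GENCODE M21 symbol. RNA-Seq reads per gene were counted in 8 libraries of the immortalized mouse microglial line BV-2, with 2 libraries in each of 4 groups. The study asked how aged garlic extract (AGE) and its component FruArg, an Amadori product of arginine, act on the response of these cells to lipopolysaccharide (LPS). The question taken up here is whether lower interferon-stimulated genes under co-treatment go with the level of the ligand, the receptors or the kinases.

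All groups were kept without serum for 4 h before treatment. Control cells received no LPS, AGE or FruArg, and the paper calls them untreated. LPS cells received 100 ng/mL LPS from a rough mutant strain of Escherichia coli for 20 h. AGE+LPS cells received the same LPS and AGE at 0.5% (v/v), added 1 h ahead of it, and FruArg+LPS cells received LPS and 3 mM FruArg on the same schedule. No group received AGE or FruArg without LPS. The line is immortalized and its defining markers of resident microglia were low, so it stands for resident microglia only in part.

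Summed over genes, the control libraries held 2707500 and 8995052 counts, against 8720784 and 12069807 with LPS, 6795464 and 6669072 with AGE+LPS, and 4692715 and 5822113 with FruArg+LPS. Levels are given as CPM, the counts scaled to library size with TMM factors, replicate 1 before replicate 2, and as CPM per kilobase of exon where genes are compared with each other. A count of 3, taken as the floor of detection, corresponds to 0.249 to 1.11 CPM when scaled to library totals without the TMM factors. This range is therefore not on the same scale as the levels given with TMM factors, where 3 counts in LPS replicate 2 are 0.276 CPM. Floors and intervals cover counting error only. All replicate 1 libraries were run in lane 3 and all replicate 2 libraries in lane 6. Over 12873 genes, the differences between replicates correlated between groups with r from 0.244 to 0.628, so the replicate number marks a shared batch. The study's methods name no batch term, and the tests leave the batch out. A fit with the replicate as a block is given beside them where it changes a call. The replicates are described as biological, but nothing states that they were separate cultures, so p measures only the spread between these libraries.

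Of 14 markers of microglia and macrophages, 12 to 14 were above 3 counts in each library, and their summed level was 4253 to 5944 CPM, with Adgre1 the most abundant at 628 to 2296 CPM. Among the markers of resident microglia, Cx3cr1 was at most 4.03 CPM, P2ry12 at most 9.29 CPM and Tmem119 at most 1.38 CPM, with Tmem119 at 0 in 3 libraries. All 5 markers of T, B and NK cells were at 0 in all libraries. The summed levels of the markers of astrocytes (4 genes), neurons (5), oligodendrocytes (4), neutrophils (4) and fibroblasts (4) were at most 1.29, 2.18, 1.87, 0.553 and 0.276 CPM. The endothelial list of 3 genes summed to 78.0 and 77.8 CPM in the controls, 10.3 and 8.84 with LPS, 17.2 and 19.0 with AGE+LPS, and 6.2 and 5.33 with FruArg+LPS. Nearly all of it was Kdr, while Pecam1 and Cdh5, the other endothelial markers, stayed at or below 1.38 CPM. Kdr was lower in every library with LPS than in the controls. The part of any of these markers in the results was not tested. Each value is a mean over many cells, so fewer expressing cells and less RNA per cell cannot be told apart.

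Interferon beta binds a receptor made of the chains IFNAR1 and IFNAR2, to which the kinases TYK2 and JAK1 are bound, and the activated kinases phosphorylate transcription factors, among them STAT2, which with IRF9 switch on interferon-stimulated genes. Interferon gamma binds IFNGR1 and IFNGR2, which work through JAK1 and JAK2. In microglia and macrophages, LPS sensed by TLR4 leads through TRIF, TBK1 and IRF3 to interferon beta, which then acts on the same and neighbouring cells.

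LPS raised the kinases Jak2 and Tyk2 beyond the threshold for differentially expressed genes (DEGs), set at a log2 fold change of 1 or more in either direction with an adjusted p below 0.05 in edgeR. These were 2 of the 7 members that passed the filter on low counts, and none was a down-regulated DEG, where 11.5% and 11.1% of the 12888 genes tested were up- and down-regulated DEGs. Ifngr2 and Jak1 also rose, by less than the fold required, so that 4 members passed on adjusted p alone, against 30.6% of all genes tested. With the replicate block, 5 members passed upward and 1 downward, where 47.8% of all genes passed. The median log2 fold change of the 7 members was 0.73, beside 0.02 over all genes tested. Under scaling by library size, which shifts the median of all genes to −0.40, the members' median was 0.31 and Ifngr1 became a down-regulated DEG.

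AGE co-treatment left none of the 7 members tested past the DEG threshold against LPS, Ifnb1 being too low for the test. In edgeR 0 of 7 members were DEGs, 1 had an unadjusted p under 0.05, and DESeq2 also called 0, while 0.292% and 0.503% of the 12317 genes tested were up- and down-regulated DEGs. With the block, again 0 members were DEGs, with 4.91% and 4.82% of all genes up- and down-regulated. On adjusted p alone 3 of the 7, Jak1, Jak2 and Tyk2, fell in the blocked fit, where 40.3% of all genes passed. The members' median log2 difference was −0.13, beside −0.00052 over all genes. Under library-size scaling, which moves the median of all genes to 0.15, the members' median turned to 0.023.

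FruArg co-treatment likewise gave 0 DEGs among the 7 members tested against LPS, with 1 at an unadjusted p under 0.05 and 0 in DESeq2. In this comparison edgeR called 0 of the 12071 genes tested, which is 0%, with 1543 at an unadjusted p under 0.05 and 196 DEGs in DESeq2. With the block 0 members were DEGs, where 2.87% and 3.48% of all genes were up- and down-regulated, and only Jak2 fell on adjusted p alone, against 17.6% of all genes. The members' median log2 difference was −0.088, beside −0.012 over all genes. The AGE and FruArg comparisons share the LPS libraries, so their values are set side by side and not counted as separate support.

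Between FruArg+LPS and AGE+LPS no member passed. Here edgeR called 0 of 11915 genes, or 0%, with 668 at an unadjusted p under 0.05, and DESeq2 also called 0. Among the 7 members, 0 had an unadjusted p under 0.05 and DESeq2 called 0. With the block 0 members were DEGs or passed on adjusted p alone, where 0.546% and 0.352% of genes were up- and down-regulated DEGs and 3.20% passed. The members' median log2 difference was 0.029, beside −0.015 over all genes, and under library-size scaling it was −0.11, beside −0.15.

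Ifnb1 (ENSMUSG00000048806, chr4:88522025-88522774, minus strand, GRCm38) encodes interferon beta, the type I interferon made in response to LPS. It was counted 0 and 2 times in the control libraries, 8 and 24 times with LPS, 0 and 3 times with AGE+LPS, and 0 and 4 times with FruArg+LPS. Both LPS libraries stood above all 6 others, with the second well above the first. In CPM the levels were 0 and 0.188, 1.0 and 2.21, 0 and 0.455, and 0 and 0.762 in the same order.

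The filter on low counts left Ifnb1 out, so its comparisons rest on pooled counts over pooled library totals with exact Clopper-Pearson 95% intervals. The rate with LPS was 9.01 times that in the controls (interval 2.3 to 77.6). It was 6.91 times that with AGE+LPS (2.16 to 35.3) and 4.05 times that with FruArg+LPS (1.43 to 15.7). These ratios set 32 counts with LPS against 2, 3 and 4, hence the wide intervals. AGE+LPS and FruArg+LPS are both near the floor, and no fold between them is given.

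Where every gene with at least 1 count was kept, edgeR gave Ifnb1 a log2 difference of 3.48 for LPS against the control (adjusted p 0.0042, 0.0042 to 0.097 over the alternatives). For AGE+LPS against LPS that filter gave −2.81 (adjusted p 0.032, 0.032 to 0.59 over the alternatives), and for FruArg+LPS against LPS −1.97 (0.56, 0.051 to 1). Without AGE+LPS replicate 1, which has no count, the AGE difference was −1.81 and did not pass, with an adjusted p of 0.59, and without replicate 2, which leaves no count in that group, it was −6.83 (0.038). For FruArg the same steps gave −1.08 (adjusted p 1) and −6.67 (0.051).

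Counts of other interferon genes were at or below the floor in every library. Of 20 further ligand genes (Ifna1, Ifna2, Ifna4, Ifna5, Ifna6, Ifna7, Ifna9, Ifna11, Ifna12, Ifna13, Ifna14, Ifna15, Ifna16, Ifnab, Ifne, Ifnk, Ifnz, Ifng, Ifnl2 and Ifnl3), 17 had no count, including Ifng, the gene of interferon gamma. The other ligands were Ifna13 with 2 counts in a control library, Ifnl2 with 2 in an LPS library and Ifnz with 1 in a FruArg+LPS library. None passed the filter on low counts. At the floor these transcripts were not detectable at this depth, which does not show them absent after the 20 h of LPS or earlier.

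The type I receptor chains Ifnar1 and Ifnar2 were expressed in all groups, and neither passed the test without the block in any comparison. Ifnar1 (ENSMUSG00000022967, chr16:91485238-91507441, plus strand), the chain that binds TYK2, stood at 148 and 124 CPM in the controls, 144 and 132 with LPS, 168 and 152 with AGE+LPS, and 163 and 166 with FruArg+LPS. Its control and LPS libraries overlapped, and all 4 co-treated libraries lay above both LPS libraries. Ifnar1 differed by 0.059 ± 0.20 (log2, SE, 2 libraries a group) for LPS against the control (adjusted p 0.85), which turned to −0.36 under library-size scaling and to −0.084 without control replicate 2. The log2 differences from LPS were 0.22 ± 0.20 with AGE (adjusted p 0.63) and 0.26 ± 0.22 with FruArg (0.62), and neither passed with the block.

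Ifnar2 (ENSMUSG00000022971, chr16:91372783-91405589, plus strand), the chain that binds JAK1, stood at 41.2 and 31.6 CPM in the controls, 52.1 and 45.5 with LPS, 55.7 and 48.0 with AGE+LPS, and 53.3 and 47.8 with FruArg+LPS. The control libraries were the lowest, and the LPS and co-treated groups overlapped. LPS against the control gave a log2 difference of 0.47 ± 0.23 that did not pass (adjusted p 0.16), and the blocked fit passed at 0.026 (0.026 to 0.88 over the alternatives). Within lanes 3 and 6 the differences were 0.34 and 0.52. Against LPS, Ifnar2 differed by 0.091 ± 0.22 with AGE (adjusted p 0.88) and 0.059 ± 0.25 with FruArg (0.93). Leaving out 1 library moved these differences from −0.024 to 0.20 and from −0.039 to 0.14.

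The chains of the interferon gamma receptor went in opposite directions with LPS. Ifngr1 (ENSMUSG00000020009, chr10:19591949-19610229, plus strand), which binds the ligand and JAK1, stood at 51.8 and 55.6 CPM in the controls, 34.4 and 35.3 with LPS, 33.7 and 29.9 with AGE+LPS, and 46.8 and 46.1 with FruArg+LPS. The controls were highest, the FruArg+LPS libraries came next, and the LPS and AGE+LPS libraries were lowest, with no overlap between any of these groups. For LPS against the control the log2 difference was −0.59 ± 0.21 (adjusted p 0.057), not past the threshold in edgeR, while the blocked fit passed at 0.0056 (0.0049 to 0.37 over the alternatives). Under library-size scaling the difference was −1.01 and Ifngr1 was a DEG.

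Against LPS, Ifngr1 differed by −0.13 ± 0.22 with AGE (adjusted p 0.82), which turned to 0.023 under library-size scaling, and by 0.42 ± 0.25 with FruArg (0.48). FruArg+LPS was 0.54 ± 0.27 above AGE+LPS on the log2 scale (adjusted p 0.84, 0.15 with the block), and within lanes 3 and 6 that difference was 0.47 and 0.62. None of these differences passed, with or without the block, although the libraries did not overlap.

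Ifngr2 (ENSMUSG00000022965, chr16:91547072-91565623, plus strand), the chain that binds JAK2, stood at 128 and 148 CPM in the controls, 234 and 246 with LPS, 224 and 225 with AGE+LPS, and 209.9 and 239.9 with FruArg+LPS. All 6 libraries with LPS lay well above both controls. Ifngr2 rose with LPS by 0.84 ± 0.20 (log2, adjusted p 0.011), or 1.79-fold. The call was lost under library-size scaling (0.41, adjusted p 0.13) and without control replicate 1 (0.74, adjusted p 0.18) or control replicate 2 (0.93, 0.083).

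No difference of Ifngr2 from LPS passed under co-treatment. The difference was −0.094 ± 0.19 with AGE (adjusted p 0.85), 0.056 under library-size scaling, and −0.088 ± 0.23 with FruArg (adjusted p 0.88), which was 0.0098 without FruArg+LPS replicate 1 and −0.19 without replicate 2. The FruArg+LPS libraries overlapped with those of LPS, and the AGE+LPS libraries lay just below them.

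**Figure D1:**
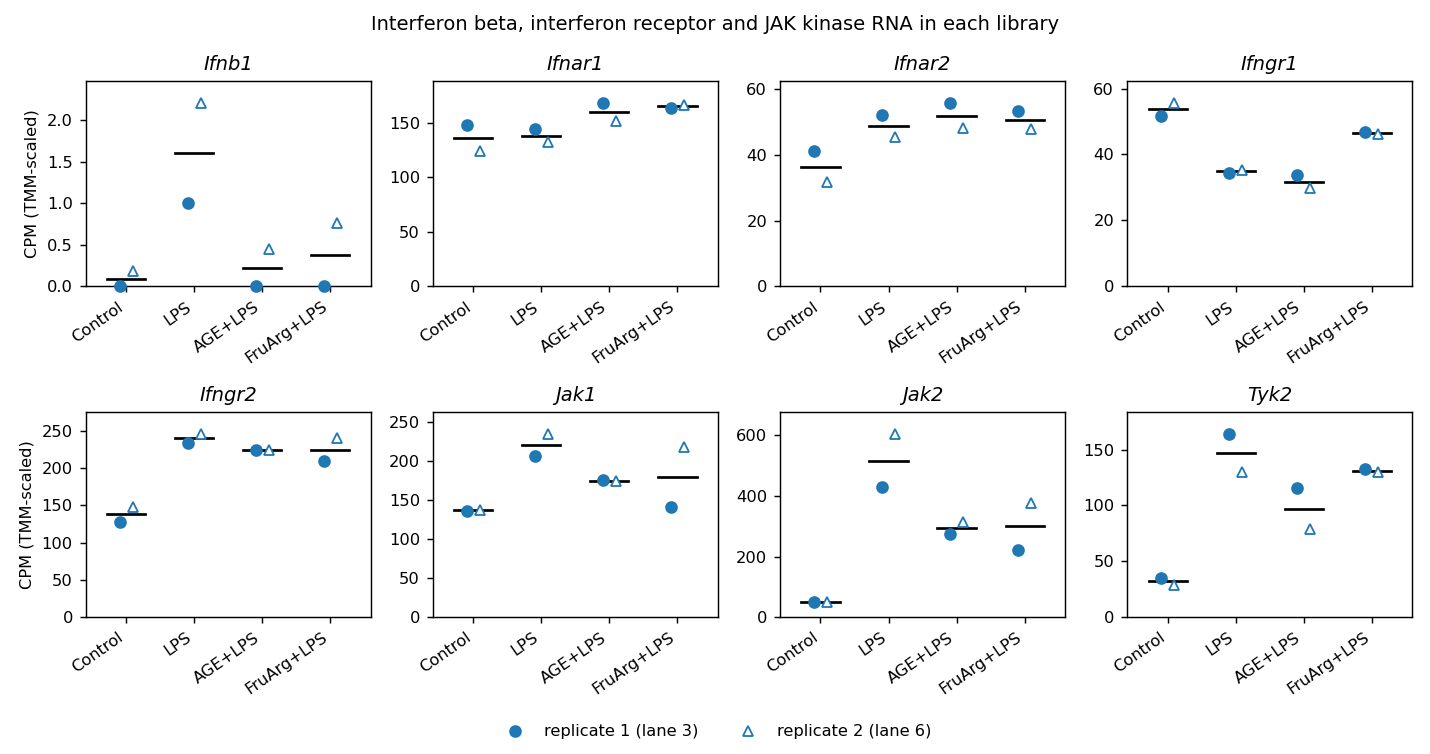
TMM-scaled CPM of the members in each of the 8 libraries (points, marked by replicate) with the mean of each group, on the y axis of each panel. Jak2 was at 49.9 and 50.8 CPM in the controls and at 220.2 to 604 CPM in the 6 libraries with LPS, while the Ifnar1 libraries lay between 124 and 168 CPM.

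Jak2 (ENSMUSG00000024789, chr19:29251828-29313080, plus strand), the kinase of IFNGR2 and of many other cytokine receptors, had a span of group means of 3.33 on the log2 scale with a prior count of 2, which holds down the span of the low Ifnb1 (2.28). It stood at 49.9 and 50.8 CPM in the controls, 428 and 604 with LPS, 274 and 314 with AGE+LPS, and 220.2 and 378 with FruArg+LPS. The controls lay far below all other libraries, both LPS libraries lay above all 4 co-treated ones, and the co-treated groups overlapped. Jak2 was 10.5-fold higher with LPS than in the controls (log2 3.39 ± 0.25, adjusted p 2.9e-05).

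Against LPS, Jak2 differed by −0.81 ± 0.24 with AGE (log2, adjusted p 0.15), and the blocked fit gave −0.79 and passed (2.4e-11, up to 0.6 over the alternatives). Within lanes 3 and 6 the AGE differences were −0.64 and −0.94. With FruArg the difference was −0.78 ± 0.32 (adjusted p 0.36), and −0.81 with the block, which passed (7.3e-04, up to 1 over the alternatives). Within lanes 3 and 6 the FruArg differences were −0.96 and −0.68. Without FruArg+LPS replicate 2, the higher of its group, Jak2 was a DEG at −1.23 (adjusted p 0.025), while it was −0.44 without replicate 1 (adjusted p 1) and −0.51 without LPS replicate 2 (1). FruArg+LPS and AGE+LPS differed by 0.016 ± 0.28 (adjusted p 0.99), and this difference was −0.12 under library-size scaling, −0.42 without FruArg+LPS replicate 2 and 0.36 without replicate 1.

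Tyk2 (ENSMUSG00000032175, chr9:21104068-21131243, minus strand), the kinase of IFNAR1, stood at 35.2 and 28.7 CPM in the controls, 164 and 130 with LPS, 116 and 78.6 with AGE+LPS, and 133 and 129.7 with FruArg+LPS. The controls were lowest and the AGE+LPS libraries intermediate, while the FruArg+LPS libraries overlapped with those of LPS. LPS raised Tyk2 4.76-fold (log2 2.25 ± 0.23, adjusted p 1.4e-04). With AGE, Tyk2 differed from LPS by −0.60 ± 0.26 (adjusted p 0.3), and the blocked fit gave −0.61 and passed (3.5e-07, up to 0.75 over the alternatives).

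In lanes 3 and 6 the AGE differences of Tyk2 were −0.51 and −0.72, and with replicate 1 or replicate 2 of AGE+LPS left out the difference was −0.90 or −0.34. With FruArg, Tyk2 differed from LPS by −0.16 ± 0.24 (adjusted p 0.79), with −0.31 and −0.004 within the lanes and 0.0033 without LPS replicate 1. The difference of FruArg+LPS from AGE+LPS, 0.43 ± 0.26, did not pass (adjusted p 0.84, 0.16 with the block), so the co-treatments are not shown to differ in Tyk2.

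Jak1 (ENSMUSG00000028530, chr4:101152367-101265282, minus strand), which serves both the type I and the gamma receptor, stood at 136 and 138 CPM in the controls, 207 and 235 with LPS, 176 and 175 with AGE+LPS, and 141 and 218 with FruArg+LPS. The LPS libraries lay above the controls and above AGE+LPS, and the FruArg+LPS libraries spread from near the controls into the LPS range. Jak1 rose with LPS by 0.73 ± 0.20 (log2, adjusted p 0.02), or 1.66-fold. That call was lost under library-size scaling (0.31, adjusted p 0.24), without control replicate 1 (0.71, 0.2) and without control replicate 2 (0.72, 0.2).

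Against LPS, Jak1 differed by −0.33 ± 0.20 with AGE (adjusted p 0.44), and the blocked fit passed at 0.0036. It did not pass with the block and 8 libraries in one fit (adjusted p 0.16) or in DESeq2 (0.69). In lanes 3 and 6 the AGE differences were −0.24 and −0.43. With FruArg the difference was −0.29 ± 0.27 (adjusted p 0.64), with −0.55 and −0.11 within the lanes, and it was −0.65 without FruArg+LPS replicate 2 and −0.01 without replicate 1.

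Jak3 (ENSMUSG00000031805, chr8:71676296-71690575, plus strand), the remaining JAK, which serves receptors that share the common gamma chain, was low, at 8.11 and 5.25 CPM in the controls, 5.51 and 3.87 with LPS, 9.86 and 8.65 with AGE+LPS, and 4.36 and 6.47 with FruArg+LPS. The AGE+LPS libraries were the highest, and the other groups overlapped. Jak3 differed from LPS by 0.99 ± 0.34 with AGE (log2, adjusted p 0.2), and the blocked fit passed at 0.0011. It did not pass with the block and 8 libraries in one fit (adjusted p 0.06) or in DESeq2 (0.37). With 1 library left out the difference was 0.75 to 1.26.

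**Figure D2:**
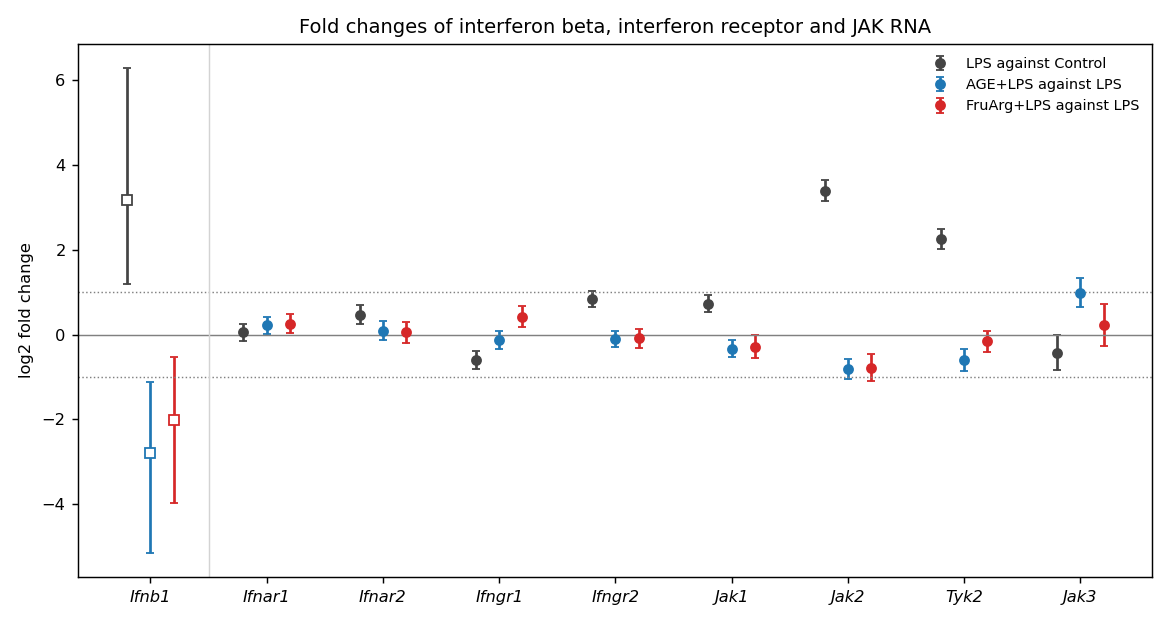
Log2 fold change (y axis) of the members and Jak3 for LPS against the control and each co-treatment against LPS, as edgeR estimates with SE (circles, 2 libraries a group) and, for Ifnb1, as pooled ratios with 95% intervals (squares). Jak2 at 3.39 and Tyk2 at 2.25 stand apart for LPS against the control, and both lie below 0 for AGE+LPS against LPS at −0.81 and −0.60.

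Per length of exon, the order of the levels changed between the groups. In the controls the mean level was highest for Ifngr2 at 36.5 ± 3.8 CPM per kb (SD, n = 2), then Ifnar1 at 22.9 ± 2.9, Ifngr1 at 18.9 ± 0.962 and Jak1 at 18.9 ± 0.241. Lower in the controls were Ifnar2 at 10.9 ± 2.03 CPM per kb, Jak2 at 10 ± 0.122, Tyk2 at 4.66 ± 0.672, Jak3 at 1.25 ± 0.377 and Ifnb1 at 0.125 ± 0.177. Neither Ifngr1 and Jak1 nor Ifnar2 and Jak2 differed beyond their spread.

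With LPS the highest level was that of Jak2 at 103 ± 24.8 CPM per kb (SD, n = 2), followed by Ifngr2 at 63.7 ± 2.19, Jak1 at 30.6 ± 2.78, Ifnar1 at 23.2 ± 1.45 and Tyk2 at 21.4 ± 3.53. Below them came Ifnar2 at 14.7 ± 1.4 CPM per kb, Ifngr1 at 12.2 ± 0.207, Ifnb1 at 2.14 ± 1.14 and Jak3 at 0.876 ± 0.217. Ifnar1 and Tyk2 did not differ beyond their spread, nor did Ifnb1 and Jak3. Jak2 and Ifngr2 were close to each other with AGE+LPS, at 58.5 ± 5.55 and 59.6 ± 0.129 CPM per kb, and with FruArg+LPS, at 59.4 ± 22.1 and 59.7 ± 5.64.

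Most JAK transcript per length was Jak1 in the controls and Jak2 in every library with LPS. Jak1 was 53.1% and 55.6% of the summed CPM per kb of the 4 JAKs in the controls, and Jak2 28.1% and 29.4%. With LPS, Jak2 was 61.3% and 69.7% of that sum, with AGE+LPS 55.9% and 62.6%, and with FruArg+LPS 52.5% and 59.9%. Across the lanes the shares of Jak2 with AGE+LPS overlapped with those of LPS and of FruArg+LPS. Within each lane the share with AGE+LPS lay below that with LPS and above that with FruArg+LPS. Both FruArg+LPS libraries lay below both LPS libraries, and all libraries with LPS lay above the controls. The summed level of the 4 JAKs was 35.3 and 34.4 CPM per kb in the controls, 139 and 172 with LPS, 97.5 and 99.6 with AGE+LPS, and 83.5 and 125 with FruArg+LPS.

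Position was shared by some of the receptors. Ifnar2, Il10rb, Ifnar1 and Ifngr2 lie in this order on the plus strand of chromosome 16 within 192841 bases (chr16:91372783-91565623). Il10rb, the shared chain of the receptors for interleukin 10 and interferon lambda, stood at 103 and 109.7 CPM in the controls, 120.3 and 159.9 with LPS, 118 and 115 with AGE+LPS, and 146 and 129 with FruArg+LPS. Its log2 difference of LPS from the control was 0.43 ± 0.21 (adjusted p 0.16), and the blocked fit passed at 0.026 (up to 0.98 over the alternatives). With AGE it differed from LPS by −0.26 ± 0.22 (adjusted p 0.6), and the blocked fit passed at 0.041 (up to 0.98). The log2 fold changes of the 4 neighbours with LPS ran from 0.059 for Ifnar1 to 0.84 for Ifngr2, and no difference between them was tested.

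Ifnlr1, the chain specific to the receptor of interferon lambda, had 4 and 2 counts in the controls, 2 and 3 with LPS, 2 and 0 with AGE+LPS, and 0 and 0 with FruArg+LPS, and was not tested. Some members overlap other genes, and the strandedness of the counting is not stated. Jak1 overlaps Raver2 with 11 counts in all libraries, Gm12785 with 9 and Gm24468 with 0, Tyk2 overlaps 1700084C06Rik with 16, Ifnar2 overlaps Gm21970 with 0, and Jak3 overlaps Insl3 with 0.

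**Figure D3:**
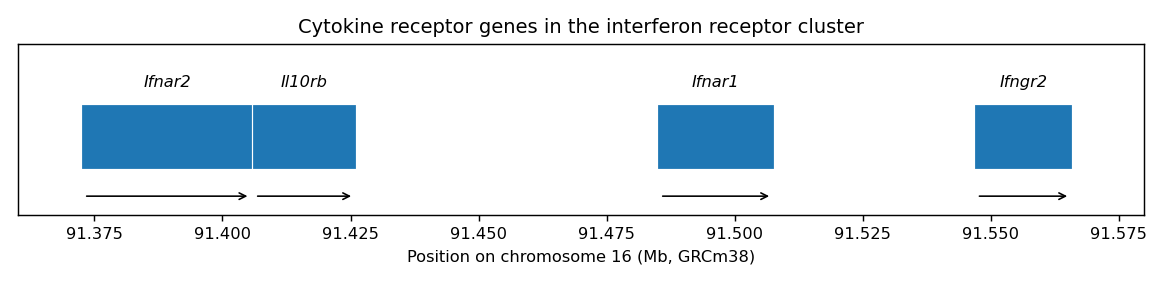
Map of chr16:91372783-91565623 (GRCm38, x axis in Mb) with the cytokine receptor genes as boxes and arrows for the direction of transcription. From left to right lie Ifnar2, Il10rb, Ifnar1 and Ifngr2, whose log2 fold changes for LPS against the control were 0.47, 0.43, 0.059 and 0.84.

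The genes whose pattern over the 8 libraries was most like that of a member were found among 10017 genes that passed the filter on low counts over all libraries with a mean of at least 5 CPM, by the root mean square difference of log2 CPM after centring each gene. For Jak2 these were Slfn2 (0.18), Rapgef2 (0.20) and Pappa2 (0.22). For Tyk2 they were Arhgap22 (0.10), Atf3 (0.11) and H2-K1 (0.13). For Ifnb1, whose low counts make its pattern uncertain, they were Tlr3 (0.24), Casp1 (0.28) and Ifi204 (0.31). The group means of the other members spanned 0.28 to 0.80 on the log2 scale, below the 1 required for this search.

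Promoter sequences are printed for Jak2, Ifnb1 and Tyk2, the members with the widest spans of group means on that scale, and for Ifngr2, whose span came next. All 8 members have an entry among 32851 RefSeq promoters (GRCm38.p6), and 4 motifs were searched on both strands of the 250 bases before each start. They were a kappa B motif, GGGANNTTCC, in 1.21% of all promoters, an IRF core, AANNGAAA, in 21.3%, an ISRE, GAAANNGAAA, in 2.98%, and a GAS element, TTCNNNGAA, in 7.02%. The ISRE letters contain those of the IRF core, so these overlap. The 160 bases before the start are shown 5′ to 3′ on the strand of the gene, with capitals for bases that match a motif. They are chr4:88522795-88522954 (minus strand) for Ifnb1, chr16:91546899-91547058 (plus strand) for Ifngr2, chr19:29251643-29251802 (plus strand) for Jak2 and chr9:21131276-21131435 (minus strand) for Tyk2.
Ifnb1: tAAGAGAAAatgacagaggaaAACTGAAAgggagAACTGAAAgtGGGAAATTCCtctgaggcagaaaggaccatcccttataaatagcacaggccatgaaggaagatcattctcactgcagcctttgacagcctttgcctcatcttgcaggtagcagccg
Ifngr2: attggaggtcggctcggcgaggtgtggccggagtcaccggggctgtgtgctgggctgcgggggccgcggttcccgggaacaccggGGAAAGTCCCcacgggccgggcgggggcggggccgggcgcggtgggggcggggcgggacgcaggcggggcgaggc
Jak2: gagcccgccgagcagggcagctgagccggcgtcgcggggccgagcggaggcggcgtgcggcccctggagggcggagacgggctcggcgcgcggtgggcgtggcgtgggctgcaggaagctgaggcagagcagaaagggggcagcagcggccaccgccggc
Tyk2: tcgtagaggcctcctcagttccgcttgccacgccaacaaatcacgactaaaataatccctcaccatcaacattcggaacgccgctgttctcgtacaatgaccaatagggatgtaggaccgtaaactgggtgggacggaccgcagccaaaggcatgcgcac

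Ifnb1 held a kappa B match 116 to 107 bases before its start and IRF core matches at 159 to 152, 139 to 132 and 126 to 119 bases before it. Ifngr2 held a kappa B match on the opposite strand, 75 to 66 bases before the start. Ifnar2 held a GAS match 214 to 206 bases before the start, outside the printed length. Jak2, Tyk2, Jak1, Ifnar1 and Ifngr1 held none of the 4 motifs in this window. The 160 bases were 79.4% G and C for Jak2, 80.6% for Ifngr2, 53.8% for Tyk2 and 46.2% for Ifnb1, beside a median of 53.8% over all promoters.

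Downstream of the kinases, Stat2, Stat3 and Irf9 rose with LPS. The log2 fold changes were 2.42 ± 0.22 for Stat2 (adjusted p 7.8e-05), 1.93 ± 0.21 for Stat3 (1.9e-04) and 0.75 ± 0.22 for Irf9 (0.029, up to 0.36 over the alternatives), so that Stat2 and Stat3 were DEGs. None of these genes was a DEG in edgeR for either co-treatment against LPS.

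Stat2, which carries the type I response together with IRF9, stood at 26.2 and 29.6 CPM in the controls, 133 and 159.8 with LPS, 65.7 and 61.8 with AGE+LPS, and 62.9 and 113 with FruArg+LPS. Both LPS libraries lay above all co-treated libraries, which overlapped with each other and lay above the controls. Stat2 differed from LPS by −1.20 ± 0.21 with AGE (log2, adjusted p 0.057) and was a DEG with the block (9.7e-18, up to 0.071 over the alternatives). With FruArg the difference was −0.73 ± 0.30 (adjusted p 0.38), and the blocked fit passed at 0.0011 (up to 1).

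Stat3, which carries signals of the interleukin 6 and interleukin 10 families, stood at 65.5 and 52.9 CPM in the controls, 219.7 and 218 with LPS, 119 and 94.4 with AGE+LPS, and 141 and 171 with FruArg+LPS. These 4 groups did not overlap. With AGE it differed from LPS by −1.03 ± 0.21 (adjusted p 0.069) and was a DEG with the block (5.7e-16, up to 0.22 over the alternatives). With FruArg it differed by −0.48 ± 0.23 (adjusted p 0.41), and the blocked fit passed at 0.04 (up to 1).

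Irf9 was at 56.4 and 77.8 CPM in the controls, 107 and 114 with LPS, 74.6 and 88.2 with AGE+LPS, and 88.2 and 104 with FruArg+LPS. Its LPS libraries were the highest, and its AGE+LPS libraries overlapped with the controls. The difference of Irf9 from LPS was −0.44 ± 0.20 with AGE (adjusted p 0.33) and passed with the block (2.9e-04, up to 0.87), and −0.19 ± 0.23 with FruArg (0.73).

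Negative regulators of JAK and STAT signalling were raised in part. Of 16 such genes (Socs1, Socs2, Socs3, Socs5, Cish, Usp18, Ptpn1, Ptpn2, Ptpn6, Ptpn11, Ptprc, Pias1, Pias2, Pias3, Pias4 and Sh2b3) 15 were tested for LPS against the control. Of these, 4 were up-regulated and 0 down-regulated DEGs, beside 11.5% and 11.1% of all genes tested. On adjusted p alone 5 passed upward and 2 downward, where 30.6% of all genes passed. The median log2 fold change was 0.16, beside 0.02 over all genes. Under library-size scaling 3 of the list were up- and 2 down-regulated DEGs, and the median was −0.27, beside −0.40 over all genes.

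Usp18, which blocks the type I receptor at IFNAR2, stood at 111 and 138 CPM in the controls, 945 and 1079 with LPS, 347 and 349 with AGE+LPS, and 638 and 676 with FruArg+LPS. These 4 groups did not overlap, and FruArg+LPS lay between AGE+LPS and LPS. It rose with LPS by 3.06 (log2) and fell with AGE by 1.54 (adjusted p 0.04). It was the only down-regulated DEG of the list with AGE among 16 tested, where 0.503% of all genes were down-regulated DEGs. With FruArg the difference was −0.62 ± 0.24 (adjusted p 0.35), and the blocked fit passed at 0.018 (0.0066 to 1 over the alternatives).

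Socs3, an inhibitor of JAKs bound to gp130 receptors, stood at 4.37 and 4.88 CPM in the controls, 46.5 and 29.7 with LPS, 90.9 and 56.2 with AGE+LPS, and 99.2 and 85.5 with FruArg+LPS. All 4 co-treated libraries lay above the LPS libraries, while Jak2, Stat2 and Stat3 were lower with co-treatment than with LPS. In the controls Socs3 and these genes were all at their lowest. A relation between their levels was not tested. Socs3 rose with LPS by 3.05 (log2, adjusted p 1.6e-04). Against LPS it differed by 0.95 ± 0.33 with AGE (adjusted p 0.2) and passed with the block (1.9e-11, up to 0.63 over the alternatives). With FruArg it differed by 1.29 ± 0.29 (adjusted p 0.21) and was the only DEG of the list with the block, at 1.32 (2.4e-07, up to 0.62).

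Socs1, an inhibitor of the kinases of both interferon receptors, had 0 and 3 counts in the controls, 38 and 22 with LPS, 27 and 20 with AGE+LPS, and 36 and 19 with FruArg+LPS. Pooled over library totals, its rate was 11.3 times higher with LPS than in the controls (Clopper-Pearson 3.67 to 56.1), and the groups with LPS overlapped. Against LPS the list had a median of 0.16 with AGE, beside −0.00052 over all genes. With FruArg edgeR called 0 of 16 (4 at an unadjusted p under 0.05, 1 DEG in DESeq2) and the median was 0.14, beside −0.012. With the block the list had 1 up- and 1 down-regulated DEG with AGE, beside 4.91% and 4.82% of all genes. With FruArg and the block it had 1 up-regulated DEG, Socs3, beside 2.87% of all genes.

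The path from LPS to Ifnb1 was raised broadly by LPS. Of 22 genes (Tlr4, Ly96, Lbp, Ticam1, Ticam2, Myd88, Traf3, Traf6, Ripk1, Tbk1, Ikbke, Tank, Irf3, Irf5, Irf7, Irf1, Irf8, Rela, Nfkb1, Jun, Atf2 and Atf3) 21 were tested, with 12 up-regulated and 0 down-regulated DEGs and a median log2 fold change of 1.29. The shares over all genes tested were 11.5% and 11.1%, and the median over all genes was 0.02. Within the list, Irf1 (3.32) and Irf7 (3.17) had the largest increases. With AGE 1 of 21 was a DEG against LPS, Irf7, with a list median of −0.57 and 4 down-regulated DEGs with the block. Over all genes, 0.503% were down-regulated DEGs with AGE, or 4.82% with the block. With FruArg and the block that share was 3.48%. The medians over all genes were −0.00052 with AGE and −0.012 with FruArg. With FruArg edgeR called 0 of 21 (5 at an unadjusted p under 0.05, 0 in DESeq2), the median was −0.26, and the block gave 1 DEG, Ticam2 at −1.14 (9.2e-04, up to 0.67 over the alternatives).

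Irf7, which amplifies type I interferon and is itself interferon-stimulated, stood at 83.6 and 128 CPM in the controls, 884 and 991 with LPS, 337 and 364 with AGE+LPS, and 429 and 682 with FruArg+LPS. These 4 groups did not overlap. It fell with AGE by 1.42 on the log2 scale (adjusted p 0.046), a call that was lost with RLE size factors at 0.053. Irf3, the factor that first switches on Ifnb1, was at 24.0 and 14.6 CPM in the controls, 15.8 and 12.3 with LPS, 20.4 and 10 with AGE+LPS, and 15.2 and 14.9 with FruArg+LPS, with all groups overlapping.

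Irf3 did not pass in any comparison, with log2 differences of −0.39 ± 0.32 for LPS against the control (adjusted p 0.39), 0.12 ± 0.38 with AGE (0.91) and 0.10 ± 0.33 with FruArg (0.9). Ticam2, the adaptor that links TLR4 to TRIF, stood at 9.35 and 6.57 CPM in the controls, 30.2 and 32.3 with LPS, 15.4 and 13.4 with AGE+LPS, and 12.6 and 15.6 with FruArg+LPS. Its co-treated libraries all lay between the controls and LPS.

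The interferon-stimulated genes rose with LPS, and most of their log2 differences from LPS were negative under co-treatment, with few past the threshold. Of 40 such genes 39 were tested, the other having no count. All 39 were up-regulated DEGs with LPS, where 11.5% of all genes were, with a median log2 fold change of 2.92. Under library-size scaling 36 were DEGs and the median was 2.50. The summed level of the 39 was 2140.4 and 2959 CPM in the controls, 25978 and 35342 with LPS, 8695 and 10163 with AGE+LPS, and 9851 and 18594 with FruArg+LPS. All co-treated libraries lay between the controls and LPS, with FruArg+LPS replicate 2 the highest of them.

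With AGE, 5 of the 39 were down-regulated DEGs against LPS and all 39 log2 differences were negative, with a median of −1.14 (−0.99 under library-size scaling). Over all genes, 0.503% were down-regulated DEGs with AGE, or 4.82% with the block. The median over all genes was −0.00052 (0.15 under library-size scaling). The 5 were Mx1, Ifit2, Cmpk2, Isg20 and Rsad2. Leaving out 1 library gave 13 to 25 such DEGs, DESeq2 gave 26, and the block gave 26. With FruArg edgeR called 0 of 39 (20 at an unadjusted p under 0.05, 9 DEGs in DESeq2), 37 differences were negative and the median was −0.80. The median over all genes with FruArg was −0.012. The block gave 16 DEGs, all down-regulated, where 3.48% of all genes were down-regulated DEGs. Without FruArg+LPS replicate 2 there were 25 and the median was −1.31, without FruArg+LPS replicate 1 there were 2 with a median of −0.40, and without LPS replicate 2 there was 1 with a median of −0.55.

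Mx1, an antiviral GTPase, stood at 4.05 and 4.97 CPM in the controls, 137 and 276 with LPS, 14.0 and 18.5 with AGE+LPS, and 16.3 and 42.3 with FruArg+LPS. It fell with AGE by 3.67 on the log2 scale (adjusted p 0.036), and with FruArg it differed from LPS by −2.81 ± 0.48 (adjusted p 0.18; a DEG with the block at 3.4e-19, up to 0.18 over the alternatives). Ifit2, which binds RNA, stood at 88.2 and 149 CPM in the controls, 2141 and 3709 with LPS, 348 and 524 with AGE+LPS, and 330.4 and 1127 with FruArg+LPS. Both genes had all co-treated libraries between the controls and LPS.

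Ifit2 fell with AGE by 2.74 (log2, adjusted p 0.039), and with FruArg it differed by −2.00 ± 0.53 (adjusted p 0.23; a DEG with the block at 1.0e-11, up to 0.28 over the alternatives). The largest increases with LPS within this list were those of the chemokine genes Ccl5 at 7.13 and Cxcl10 at 6.54. Ccl5 stood at 1.87 and 1.88 CPM in the controls, 204 and 309 with LPS, 202 and 147 with AGE+LPS, and 175 and 382 with FruArg+LPS. Its FruArg+LPS libraries reached on both sides of the LPS libraries.

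Cxcl10 stood at 6.55 and 7.79 CPM in the controls, 520.3 and 811 with LPS, 246 and 184 with AGE+LPS, and 161 and 284 with FruArg+LPS. All its co-treated libraries lay below LPS. It differed from LPS by −1.63 ± 0.29 with AGE (adjusted p 0.058; a DEG with the block at 4.1e-24, up to 0.065 over the alternatives) and by −1.57 ± 0.34 with FruArg (0.2; with the block 5.5e-10, up to 0.25).

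Targets of interferon gamma, a list that shares Socs1 and Irf1 with the lists above, rose with LPS although no Ifng count was found. Of 18 genes (Ciita, Cd74, H2-Aa, H2-Ab1, H2-Eb1, H2-DMa, H2-DMb1, Cxcl9, Gbp2, Gbp3, Gbp5, Irgm1, Igtp, Ido1, Fcgr1, Socs1, Irf1 and Icam1) 12 were tested, 10 of them up-regulated DEGs with LPS, with a median of 3.00. Of all genes tested, 11.5% were up-regulated DEGs with LPS. Several of these targets are known to respond to type I interferon and to LPS as well. With AGE 5 were down-regulated DEGs against LPS, where 0.503% of all genes were, and the median was −1.45. The medians over all genes were −0.00052 with AGE and −0.012 with FruArg. With FruArg and the block, 3.48% of all genes were down-regulated DEGs. With FruArg edgeR called 0 of 12 (7 at an unadjusted p under 0.05, 4 in DESeq2), the median was −0.94 and the block gave 6 DEGs. Among them, Gbp3 at −1.62 passed under 5 of 12 alternatives (−2.30 to −1.03, adjusted p up to 0.5) and Igtp at −1.54 under 4 of 12 (−2.48 to −0.75, up to 0.86).

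Gbp5, a guanylate-binding protein, stood at 0.624 and 0.751 CPM in the controls, 174 and 269 with LPS, 55.2 and 35.4 with AGE+LPS, and 43.4 and 127 with FruArg+LPS. It rose with LPS by 8.28 (log2) and fell with AGE by 2.29 (adjusted p 0.042, 0.051 with RLE size factors). Igtp, an immunity-related GTPase, fell with AGE by 2.24 (adjusted p 0.046, 0.054 with RLE size factors) from 278 and 455 CPM with LPS to 60.9 and 94.6. Gbp2, which rose with LPS by 6.25, went from 18.4 and 20 CPM in the controls to 1087 and 1786.

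**Figure D4:**
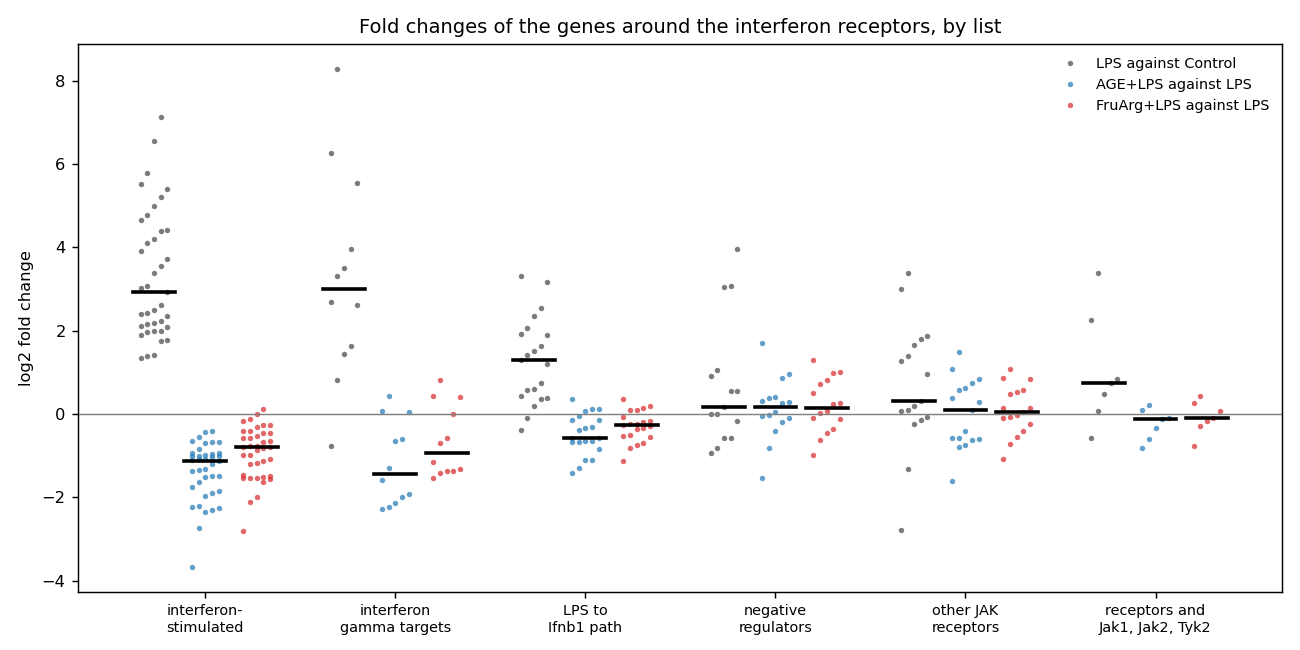
Log2 fold changes of the tested genes of each list (points, y axis) with the median of the list (bar), for LPS against the control and each co-treatment against LPS. The interferon-stimulated genes have medians of 2.92 for LPS against the control, −1.14 for AGE+LPS against LPS and −0.80 for FruArg+LPS against LPS, and the members 0.73, −0.13 and −0.088.

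Other cytokine receptors that use JAKs included DEGs in both directions with LPS. Of 30 such genes 17 were tested for LPS against the control, with 7 up- and 2 down-regulated DEGs. Of all genes tested, 11.5% and 11.1% were up- and down-regulated, so the down-regulated count was near the share over all genes. The median was 0.32, beside 0.02 over all genes (−0.10 and −0.40 under library-size scaling). Il15ra (3.39) and Il4ra (3.00) had the largest increases, and Il12rb2 and Il6ra fell by 2.79 and 1.32 on the log2 scale. The Il6ra call was lost without control replicate 2 (adjusted p 0.061). Il4ra, which with JAK1 receives interleukin 4, stood at 13.1 and 7.79 CPM in the controls, 88.8 and 66.1 with LPS, 123 and 107 with AGE+LPS, and 169 and 155 with FruArg+LPS, with no overlap between these groups.

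Against LPS, edgeR called 0 of 17 receptors tested with AGE (7 at an unadjusted p under 0.05, 2 DEGs in DESeq2, 1 under library-size scaling; median 0.10) and 0 of 17 with FruArg (5 at an unadjusted p under 0.05, 1 in DESeq2; median 0.04). The block, with which 4.91% and 4.82% of all genes were up- and down-regulated, gave 3 DEGs with AGE. These were Il12rb2 at 1.49 (adjusted p 0.0072), which passed under none of 12 alternatives (0.089 to 0.68), Csf2rb at 1.07 (2.3e-16, up to 0.11 over the alternatives) and Il15ra at −1.62 (3.0e-09, up to 0.093). With FruArg it gave 2, Il4ra at 1.09 (3.3e-06, up to 0.7 over the alternatives) and Il15ra at −1.16 (0.01, up to 1). Of all genes, 2.87% and 3.48% were up- and down-regulated DEGs with FruArg in the blocked fit. Il15ra, at 14.4 and 16.8 CPM with LPS, was at 5.86 and 4.25 with AGE+LPS and 3.9 and 10.7 with FruArg+LPS.

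Between FruArg+LPS and AGE+LPS, edgeR called 0 of the 39 interferon-stimulated genes (6 at an unadjusted p under 0.05, 0 in DESeq2), with 38 positive differences and a median of 0.43, which was −0.061 without FruArg+LPS replicate 2. The block gave 1 DEG, Cmpk2 at 1.15, where 0.546% of all genes were up-regulated DEGs. The medians of 4 other lists were −0.061 for the negative regulators, 0.13 for the path to Ifnb1, 0.60 for the interferon gamma targets and 0.072 for the other receptors, beside −0.015 over all genes, and edgeR called 0 in each of these 4 lists, as did DESeq2. At an unadjusted p under 0.05 were 1, 4, 0 and 2 genes of these lists in the same order.

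Set side by side, the interferon-stimulated genes had median log2 differences of −1.14 with AGE and −0.80 with FruArg against LPS, the latter from −1.31 to −0.40 with 1 library left out. The ligand Ifnb1 had pooled log2 ratios of −2.79 (95% interval −5.14 to −1.11) and −2.02 (−3.98 to −0.52), on pooled counts of 3 and 4 against 32. Among the kinases, Jak2 had −0.81 and −0.78, Tyk2 −0.60 and −0.16, and Jak1 −0.33 and −0.29, all short of the DEG threshold in edgeR. With the block, Jak2 (adjusted p 2.4e-11), Tyk2 (3.5e-07) and Jak1 (0.0036) passed on adjusted p with AGE, and Jak2 (7.3e-04) with FruArg, each by less than the fold required. These are 3 and 1 of 7 members, where 40.3% and 17.6% of all genes passed, and Jak1 did not pass with the block and 8 libraries in one fit (adjusted p 0.16). The 4 receptor chains lay between −0.13 and 0.22 with AGE and between −0.088 and 0.42 with FruArg, with none past the threshold with or without the block. A p that misses the threshold does not show that the receptor levels were equal, and which of these levels the stimulated genes depend on was not tested.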

How the data were processed

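The counts per gene were deposited by the authors, who trimmed single-end reads of 100 bases with fastx_toolkit, mapped them to GRCm38 with TopHat2 and counted them with featureCounts. The authors state no versions, strandedness or handling of multi-mapped reads. All else was computed from those counts. Of 46078 genes, 45229 matched GENCODE M21, which gave symbols, positions and exon lengths.

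Each pair of groups was fitted on its own 4 libraries in R 4.3.3 with edgeR 4.0.16 (limma 3.58.1): filterByExpr, TMM factors, quasi-likelihood F-test and Benjamini-Hochberg adjustment, with DEGs at a log2 fold change of 1 or more in either direction and an adjusted p below 0.05. CPM use TMM factors, and log2 CPM a prior count of 2. Figures and tables used Python 3.11.15, pandas 2.3.3, numpy 2.4.6, scipy 1.17.1 and matplotlib 3.10.9.

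Alternatives were DESeq2 1.42.0, RLE size factors, library-size scaling, a filter that keeps any gene with 1 count or more, a filter of 10 counts in each library, no minimum fold, 8 libraries in one fit, the replicate as a block (alone and with 8 libraries), and leaving out each library. Named by a rule set beforehand were the members and Jak3, the 2 DEGs of each list with the largest increase and the 2 with the largest decrease in each comparison (from the blocked fit where edgeR had none without it), Stat2, Irf9, Socs1, Socs3, Usp18, Irf3, Irf7 and the 3 genes most like a member. Any other gene, such as Il10rb, Isg20 or Rsad2, was named after its values were seen. Of the genes that the rule names, 1 was left out with its list and is not reported here. The members and lists were chosen with earlier results of these data known. Library totals of 2707500 to 12069807 put the floor of 3 counts at 0.249 to 1.11 CPM without TMM factors, unlike the levels, which use them. The fits were tested on simulated counts first.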

Additional observations from a re-analysis of the deposited data

Results flagged for a closer look

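Against LPS, both co-treatments gave lower values of Usp18 and Cmpk2, but by different amounts, and the test of the difference between the co-treatments with the replicate block is what picked these genes out. FruArg+LPS exceeded AGE+LPS by 0.91 for Usp18 on the log2 scale (adjusted p 0.84 without the block, 0.0064 with it). In lanes 3 and 6, Usp18 differed from LPS by −0.57 and −0.68 with FruArg and by −1.45 and −1.63 with AGE. For Cmpk2 FruArg+LPS exceeded AGE+LPS by 1.26 (adjusted p 0.84 without the block, 0.0064 with it). In lanes 3 and 6, Cmpk2 differed from LPS by −1.61 and −0.77 with FruArg and by −2.23 and −2.45 with AGE. Over the alternatives the Cmpk2 difference was 0.58 to 1.73 and passed in 3 of 12. The FruArg+LPS libraries stood at 792 and 1741 CPM and the AGE+LPS libraries at 513 and 541, so much of the Cmpk2 difference comes from FruArg+LPS replicate 2. The cause was not tested.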

How the results depend on the processing

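DEGs for AGE+LPS against LPS numbered 98, and 529 with DESeq2, 927 with the filter of at least 1 count, 376 with 8 libraries in one fit, 1199 with the block, 895 with the block and 8 libraries, and 349 to 646 with 1 library left out. For FruArg+LPS against LPS there were 0, and in the same order 196, 503, 5, 766, 853 and 5 to 1549. FruArg+LPS against AGE+LPS had 0, and 40 with at least 1 count, 107 with the block, 151 with the block and 8 libraries, and 10 to 233 with 1 library left out.

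Members called for LPS against the control were 2, or 4 with no minimum fold and 3 with library-size scaling, with at least 1 count or without LPS replicate 1. For AGE+LPS against LPS 0 were called, or 1 (Ifnb1) with at least 1 count, and 0 to 1 with 1 library left out. For FruArg+LPS against LPS 0 were called, and 0 to 1 with 1 library left out.

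Interferon-stimulated genes called for AGE+LPS against LPS were 5, and 26 with DESeq2, 28 with at least 1 count, 14 with 8 libraries, 26 with the block, 27 with the block and 8 libraries, and 13 to 25 with 1 library left out. For FruArg+LPS against LPS they were 0, and 9 with DESeq2, 17 with at least 1 count, 16 with the block, 16 with the block and 8 libraries, and 1 to 25 with 1 library left out. For FruArg+LPS against AGE+LPS they were 0, and 1 with at least 1 count, 1 with the block, 1 with the block and 8 libraries, and 0 to 1 with 1 library left out. The median of these genes in that comparison was −0.061 to 0.73 with 1 library left out.

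Of the log2 fold changes of members and Jak3 over the alternatives, 335 kept direction and side of the threshold, 16 became stronger, 6 weaker and 27 reversed. Under library-size scaling the reversed values were −0.36 for Ifnar1 with LPS, 0.023 for Ifngr1 and 0.056 for Ifngr2 with AGE, and, for FruArg+LPS against AGE+LPS, −0.10 for Ifnar1, −0.11 for Jak1 and −0.12 for Jak2. In that last comparison Ifngr2 was 0.00087 with RLE and 0.0022 with 8 libraries, and Jak2 was −0.0062 with at least 1 count, −0.029 with the block and −0.013 with the block and 8 libraries.

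With 1 library left out, Ifnar1 ranged from −0.084 to 0.19 for LPS against the control, and Ifnar2 from −0.024 to 0.20 for AGE+LPS against LPS. For FruArg+LPS against LPS the ranges were −0.039 to 0.14 for Ifnar2, −0.19 to 0.0098 for Ifngr2, −0.32 to 0.0033 for Tyk2 and −0.094 to 0.48 for Jak3. For FruArg+LPS against AGE+LPS they were −0.039 to 0.11 for Ifnar1, −0.15 to 0.068 for Ifnar2, −0.10 to 0.10 for Ifngr2, −0.31 to 0.32 for Jak1 and −0.42 to 0.36 for Jak2. Such a fit leaves 1 library in a group, which is assumed to vary like the other group. All 404 alternative values of the 34 tests of genes named from the lists kept their direction, and 290 had an adjusted p below 0.05, whatever the fold. These genes were picked for the largest differences among the DEGs of each list in the same libraries, so a kept direction is no separate support. The cause of the changes between settings was not tested. The smallest control library, at 2707500 counts, limits the detection of Ifnb1 and other low genes.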
